A study of Mus musculus with 4 samples.

Results

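Genes that mark successive steps of osteoclast formation were followed in RAW264.7 cells, a mouse macrophage line that can turn into osteoclast-like cells. The 10 genes are Tnfrsf11a, Oscar, Nfatc1, Dcstamp, Ocstamp, Itgb3, Car2, Atp6v0d2, Ctsk and Acp5, and all 10 were found by symbol among the 17655 genes of the table. They were chosen by name with their values in these 4 libraries already known, so the values describe these libraries and nothing was tested on them. Digitonin was used to permeabilize the cells, which then spent 24 h with ultrapure water, with the water of a mock fOS extraction, with 10 µM of the synthetic disaccharide Manβ1-4GlcNAc (ManGn), or with 10 µM of the free oligosaccharide (fOS) pool of Trex1-/- cells. The pool came from mouse embryonic fibroblasts that lack the exonuclease TREX1. The sources used here name no RANK ligand or M-CSF among the agents. Each of the 4 conditions has 1 library of total RNA, so differences cannot be set against replicates, and the text has no p-values.

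Osteoclasts are the bone-resorbing cells of the monocyte and macrophage lineage. M-CSF keeps their precursors alive, and RANK ligand binds the receptor RANK, which signals through TRAF6 to NF-κB and the MAP kinases. With calcium signals from ITAM-bearing co-receptors, these induce NFATc1, the transcription factor that switches on genes for cell fusion, attachment to bone, acid secretion and matrix digestion. The 10 genes span these steps, from the receptor to the enzymes released onto bone.

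Of the 10 genes, 7 reached an FPKM of at least 1 in at least 1 library, as did 11183 genes of the table. FPKM are fragment counts divided by transcript length and by the mapped reads of the library, so levels can be set side by side between genes. The receptor, the transcription factor, 1 fusion gene, both acid genes and both matrix enzymes were in this group. Ocstamp, Itgb3 and Oscar were below 1 in all 4 libraries. The largest difference among the 10 was that of Atp6v0d2, a proton pump subunit, with 5.20 FPKM in the water library and 139.9 in the ManGn library. Nfatc1 was the most even of those at FPKM of at least 1, at 24.7 to 29.5. In every library Ctsk, the collagen-degrading cathepsin, stood highest of the 10.

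**Figure D1:**
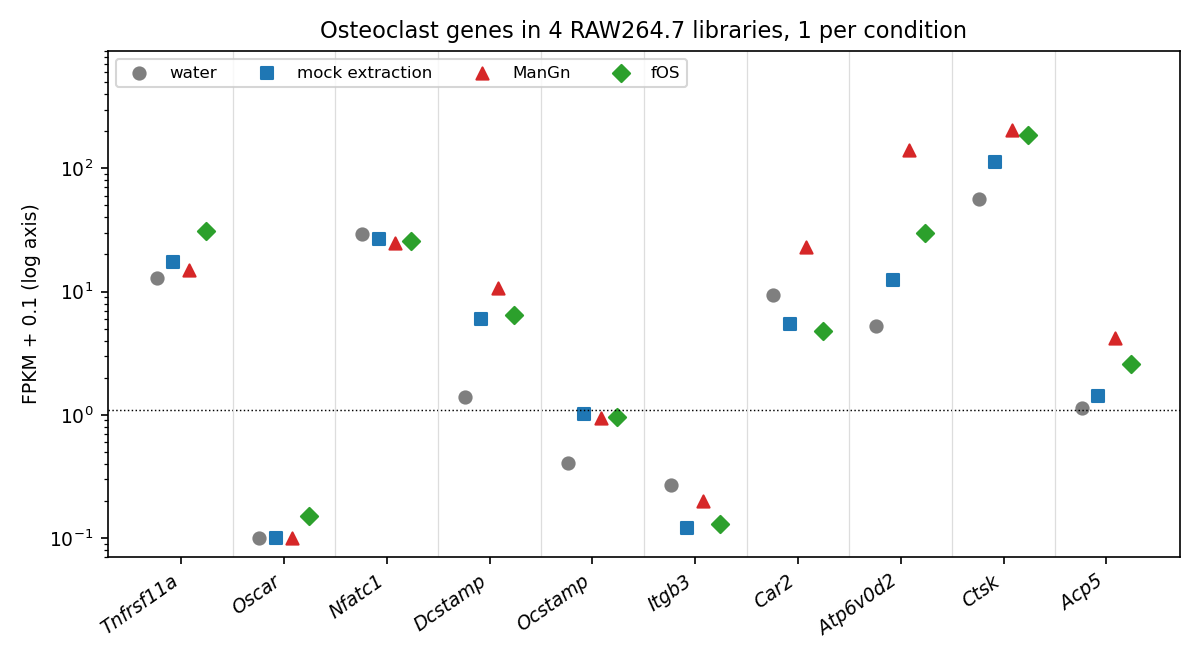
FPKM plus 0.1 on a log axis for the 10 genes, ordered from receptor to matrix enzymes, with 1 point per library, and a dotted line at an FPKM of 1. Atp6v0d2 runs from 5.20 with water to 139.9 with ManGn, the 4 Nfatc1 points lie close together, and Ocstamp, Itgb3 and Oscar lie under the line in all 4 libraries.

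The libraries held about 9962000 to 10622000 reads, as judged from the spacing of the lowest FPKM values, and an FPKM of 1 on a transcript of 2000 bases was worth 19.9 to 21.2 reads. All 10 markers of macrophages looked for were in the table, and 9 of them reached an FPKM of at least 1 in all 4 libraries. Their summed level was 8358 to 9288 FPKM, of which Lyz2 (lysozyme) made up 6202 to 7250, and Mertk was under 1 in all 4 libraries. Macrophage markers also differed between the controls. The mock extraction library had 4 of the 9 at 2-fold or more above water. The share among the 11183 genes at an FPKM of at least 1 in at least 1 library was 9.24%. Itgam was at least 2-fold lower with each ligand than with both controls, at 103 FPKM in water, 136 in the mock extraction, 49.8 under ManGn and 44.4 under fOS. The part of these differences in the values below was not tested. The summed level of 10 osteoblast markers was 1.30 to 2.74 FPKM, most of it Runx2, and that of 4 T cell markers 1.56 to 2.76 FPKM. All 5 B cell markers and all 6 fibroblast markers were under an FPKM of 1 in all 4 libraries. Genes that mark mature osteoclasts were divided. Itgb3, Oscar, Ocstamp, the gelatinase Mmp9 (at most 0.47 FPKM), Slc9b2 (at most 0.31) and Akap6 (0) were under 1 in all 4 libraries. Siglec15 reached 1 only in the mock extraction (1.38 FPKM) and fOS (1.85) libraries. Ctsk, Atp6v0d2, Acp5, the pump subunit Tcirg1, the chloride transporter Clcn7 (11.1 to 17.1 FPKM) and the creatine kinase Ckb reached 1 in all 4. Dcstamp, Car2, Myo1d, Tm4sf19 and Ppargc1b also did.

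A ratio below is log2 of FPKM plus 0.1 in 1 library over the same in another. The words higher and lower, in counts, stand for a difference of 2-fold or more where 1 of the 2 libraries reached an FPKM of 1. Intervals are exact 95% intervals on estimated reads, which cover counting error only and no variation between cultures. Each ligand was set over both controls, and the comparisons that use the same control share its library. In bulk RNA, a difference in the number of cells that express a gene cannot be told apart from a difference in its RNA per cell.

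Tnfrsf11a (Entrez Gene 21934) codes for RANK, the receptor on which the pathway starts. Its FPKM were 12.7 in water, 17.4 in the mock extraction, 14.8 under ManGn and 30.8 under fOS. The fOS library was the highest, and the ManGn library lay between the controls. The log2 ratio of fOS was 0.82 over the mock extraction and 1.27 over water, so it passed 2-fold over water only. As quotients of FPKM these were 1.77 (counting interval 1.63 to 1.93) and 2.42 (2.21 to 2.66). ManGn gave 0.21 over water and -0.24 over the mock extraction. Of the 7 genes that reached an FPKM of 1, Tnfrsf11a alone was past 2-fold in favour of fOS when the ligand libraries were set side by side. Its log2 ratio for ManGn over fOS was -1.06. Atp6v0d2 (2.23) and Car2 (2.28) were past 2-fold in favour of ManGn. The share of all genes past 2-fold was not counted for this pair of libraries.

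Oscar (232790), an immunoglobulin-like co-receptor that binds collagen and signals through the Fc receptor γ chain, was at 0 in the water, mock extraction and ManGn libraries. With fOS it was listed at 0.05 FPKM, which is about 1 read. In a library at 0, a limit of 3 reads stands for an FPKM of up to 0.163 to 0.165. A value of 0 therefore could not exclude Oscar up to that level, and 1 read does not separate the fOS library from the others. The γ chain itself, Fcer1g, was at 354 FPKM in water, 367 in the mock extraction, 463 under ManGn and 359 under fOS. Tyrobp (DAP12), the adaptor of the other co-receptors, was at 729 to 765 FPKM, and its partner Trem2 at 169.7 to 293.

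Nfatc1 (18018), the transcription factor on which terminal differentiation rests, was at 29.5 FPKM in water, 26.7 in the mock extraction, 24.7 under ManGn and 25.5 under fOS. Both ligand libraries were lower than both controls, by small steps. The log2 ratios were -0.25 for ManGn over water, -0.11 for ManGn over the mock extraction, -0.06 for fOS over the mock extraction and -0.21 for fOS over water. The controls themselves differed by -0.14. For fOS over the mock extraction the quotient was 0.956, with a counting interval of 0.882 to 1.03 that includes 1. Nfatc1 mRNA stood on 1144 to 1348 estimated reads in each library, and no ratio came near 2-fold. It has 6 transcripts in the table, and its estimated reads use their median length.

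Dcstamp (75766) codes for a membrane protein that precursors need to fuse in mice. It had 1.30 FPKM in water, 5.93 in the mock extraction, 10.6 under ManGn and 6.38 under fOS. The water library was low, and the other three lay within a factor of 1.79 of each other. The log2 ratio over water was 2.93 with ManGn, 2.21 with fOS and 2.11 with the mock extraction. Over the mock extraction it was 0.83 with ManGn and 0.10 with fOS. The fOS quotient over the mock extraction was 1.08, with an interval of 0.830 to 1.38, so these 2 libraries could not be separated by counting error alone. The mock extraction, which contained no ligand, therefore gave a difference from water close to that of fOS.

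Ocstamp (74614), a second fusion protein of the same kind, had 0.31 FPKM in water, 0.91 in the mock extraction, 0.85 under ManGn and 0.86 under fOS. It followed the order of Dcstamp in that water was the lowest, with about 11.3 reads against 31.4 to 33.4 in the others. The mock extraction was 2.94 times water by FPKM, with a counting interval of 1.47 to 6.54. Between the ligands and the mock extraction the log2 ratios were -0.09 and -0.07. As Ocstamp stayed under an FPKM of 1, it entered no count.

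Itgb3 (16416) codes for integrin β3, the chain that makes the vitronectin receptor of osteoclasts with integrin αv. Its FPKM were 0.17 in water, 0.02 in the mock extraction, 0.10 under ManGn and 0.03 under fOS, or about 9.80, 1.16, 5.84 and 1.84 reads. No more than about 10 reads stood behind any of these values. The partner chain Itgav was present at 11.4, 9.13, 16.9 and 28.2 FPKM in the same order, and was at least 2-fold higher with fOS than with both controls.

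Car2 (12349), carbonic anhydrase II, which supplies protons for acid secretion, had 9.33 FPKM in water, 5.40 in the mock extraction, 22.95 under ManGn and 4.66 under fOS. ManGn stood above both controls, and fOS below both. The log2 ratio with ManGn was 1.29 over water and 2.07 over the mock extraction. With fOS it was -0.99 over water and -0.21 over the mock extraction. The quotient over the mock extraction was 0.863 with fOS, and its counting interval of 0.642 to 1.17 includes 1. The quotient over water was 0.499, which the added 0.1 keeps just short of 2-fold. Car2 was the only 1 of the 7 genes with ManGn above and fOS below both controls, and ManGn was 4.92 times fOS (interval 3.89 to 6.23).

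Atp6v0d2 (242341) codes for the d2 subunit of the membrane part of the vacuolar proton pump, which mouse osteoclasts need to fuse and to resorb bone. It had 5.20 FPKM in water, 12.35 in the mock extraction, 139.9 under ManGn and 29.8 under fOS. Both ligand libraries stood above both controls, and ManGn was far above fOS. The log2 ratio of ManGn was 4.72 over water, the 37th highest of 11183 genes, and 3.49 over the mock extraction, the 58th highest. As quotients of FPKM these were 26.9 (counting interval 22.5 to 32.1) and 11.3 (10.1 to 12.8). For fOS the log2 ratio was 2.50 over water and 1.26 over the mock extraction. Atp6v0d2 was the only one of the 10 that passed 2-fold over both controls with both ligands. The mock extraction was also 2.38 times water (1.92 to 2.92), so part of the distance from water was present with no ligand.

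Ctsk (13038), cathepsin K, the main protease that cuts bone collagen, had 56.5 FPKM in water, 112 in the mock extraction, 206 under ManGn and 185 under fOS. All 4 libraries were apart by more than counting error, with ManGn and fOS above both controls. ManGn had a log2 ratio of 1.86 over water and 0.88 over the mock extraction. With fOS the ratios were 1.71 and 0.73. The mock extraction was 1.98 times water, just short of 2-fold. Ctsk thus passed 2-fold over water with both ligands and over the mock extraction with neither.

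Acp5 (11433), tartrate-resistant acid phosphatase, the classic stain for osteoclasts, had 1.03 FPKM in water, 1.32 in the mock extraction, 4.13 under ManGn and 2.48 under fOS. These are about 13.9, 17.9, 56.5 and 35.7 reads. The ligand libraries were both above the controls, and the controls were alike within counting error, with a quotient of 1.28 (0.601 to 2.78). ManGn gave a log2 ratio of 1.90 over water and 1.57 over the mock extraction. With fOS the ratios were 1.19 and 0.86, and the quotient over the mock extraction was 1.88 (1.04 to 3.53). Acp5 was the lowest of the 7 genes that reached an FPKM of 1, so this marker was present at few reads.

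Counted over water, 5 of the 10 genes were higher with ManGn (Atp6v0d2, Ctsk, Dcstamp, Acp5 and Car2), beside 9.44% of all genes tested, and 0 were lower, beside 7.37%. With fOS over water 5 were higher (Atp6v0d2, Ctsk, Dcstamp, Acp5 and Tnfrsf11a), beside 14.1%, and 0 lower, beside 14.3%. Over the mock extraction, 3 were higher with ManGn (Atp6v0d2, Car2 and Acp5), beside 3.51%, and 0 lower, beside 3.47%. Over the mock extraction with fOS, Atp6v0d2 alone was higher, beside 2.67%, and 0 were lower, beside 6.41%. The mock extraction over water had 2 higher (Atp6v0d2 and Dcstamp), beside 9.24%, and 0 lower, beside 6.69%. Only 7 of the 10 genes reached an FPKM of 1 and could be called, while the shares are over genes that all reached it. Since the genes were chosen with these values known, nothing is read from the shares.

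Over both controls at once, 3 of the 10 genes were higher with ManGn (Atp6v0d2, Car2 and Acp5), beside 1.8% of all genes tested, and 0 lower, beside 1.23%. With fOS 1 was higher, Atp6v0d2, beside 1.9%, and 0 were lower, beside 4.37%. Without a fold limit, both ligand libraries lay above both controls for 4 of the 10 genes, Ctsk, Atp6v0d2, Dcstamp and Acp5, against 21.3% of all genes tested. They lay below both controls for Nfatc1 alone, against 21.7%. For the 7 genes that reached an FPKM of 1, the median log2 ratio of ManGn was 1.86 over water and 0.88 over the mock extraction, that of fOS 1.27 and 0.73, and that between the controls 0.45. Over all genes tested these medians lay between -0.02 and 0.07. A gene could reach an FPKM of 1 through the library where it was high, so these medians describe the 7 genes only.

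**Figure D2:**
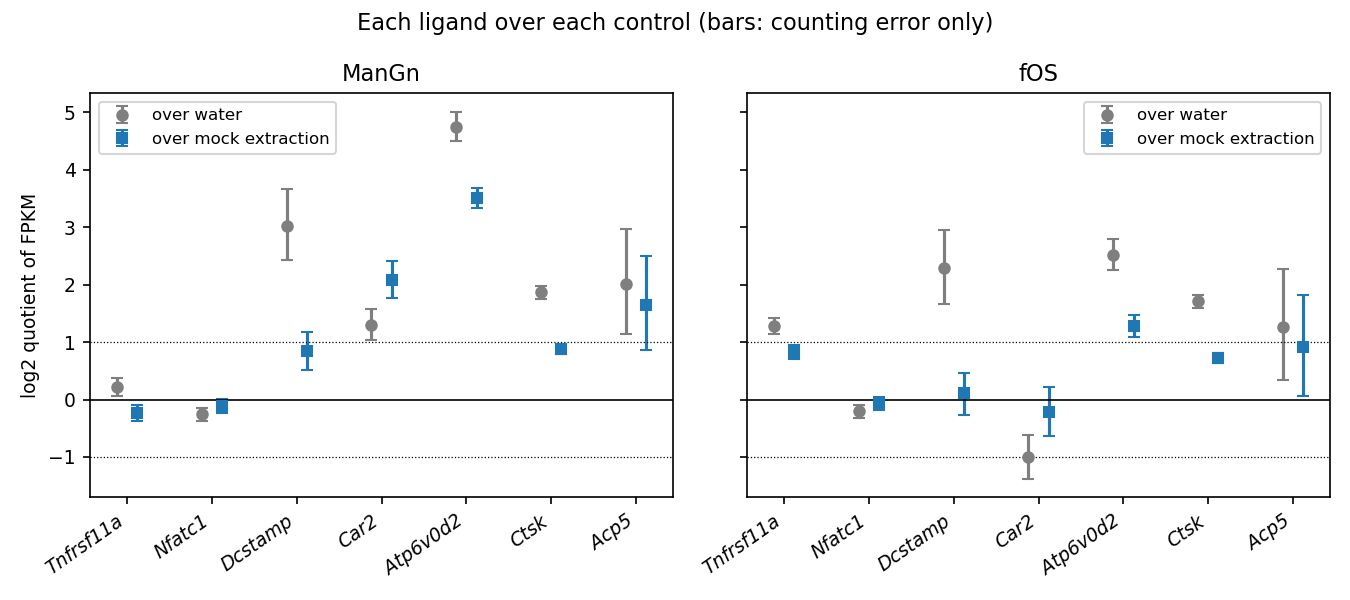
The log2 quotient of FPKM of each ligand over water (circles) and over the mock extraction (squares) for the 7 genes at FPKM of at least 1 in at least 1 library, with bars for the exact 95% counting interval and dotted lines at 2-fold. ManGn over both controls lies above 2-fold for Atp6v0d2, Car2 and Acp5, and fOS over both controls for Atp6v0d2 alone.

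**Figure D3:**
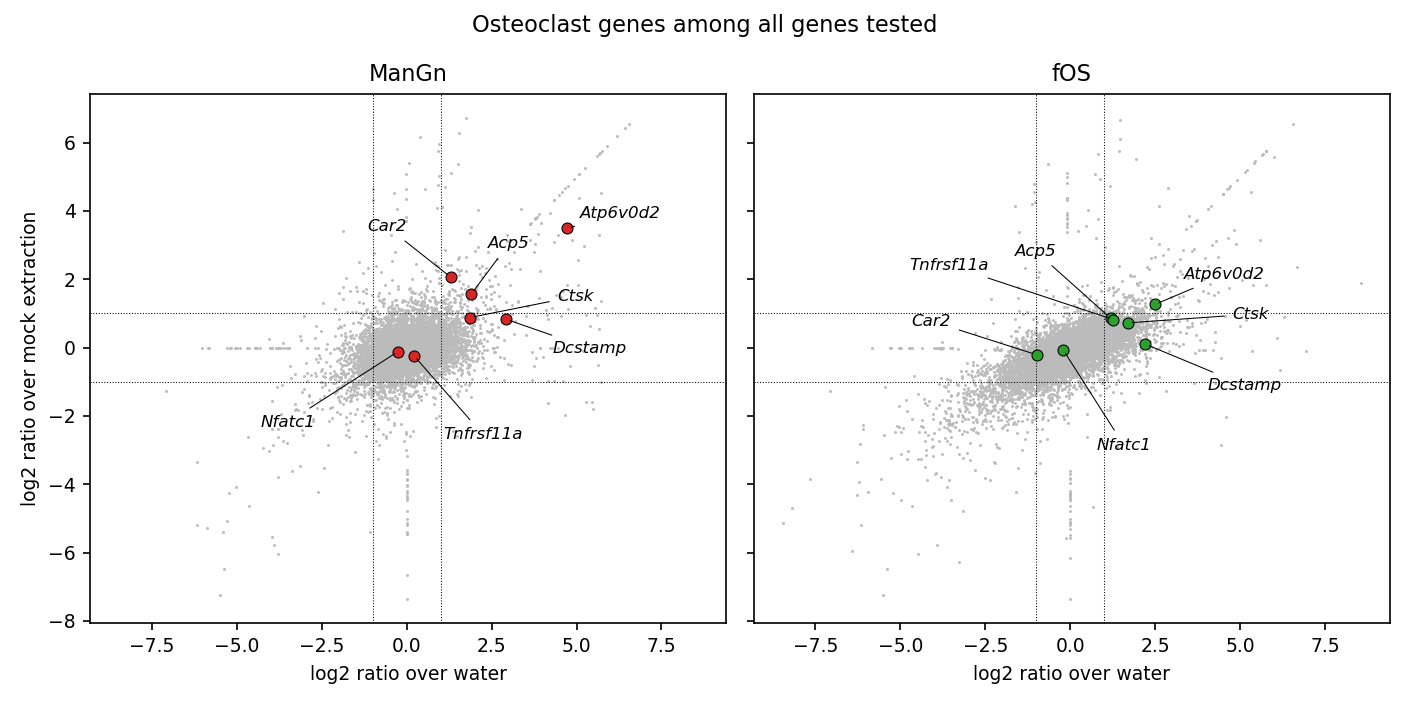
Each gray point is 1 of 11183 genes, with its log2 ratio over water on the horizontal axis and over the mock extraction on the vertical axis, for ManGn and for fOS, with dotted lines at 2-fold. Both axes share the ligand library, so a slope between them is built in. With ManGn, Atp6v0d2 has 4.72 on one axis and 3.49 on the other, with fOS 2.50 and 1.26, and Nfatc1 stands near the origin in both.

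The stretches before the start sites of Ctsk, Oscar and Acp5 are shown because these genes were high, at 0 to about 1 read, and low with a ligand difference, and because the lineage factors named below bind short motifs. Such stretches from RefSeq (GRCm38.p6) were used for 4 of the 10 genes, Tnfrsf11a, Ctsk, Oscar and Acp5, the last with 3 start sites. Any window of the 10 genes on one of the chromosomes was left out beforehand, so RefSeq may hold stretches for more of them. The sequences are the 250 bases before the start site, 5′ to 3′ on the strand of the gene, for Ctsk at chr3:95498960-95499209 on the plus strand, for Oscar at chr7:3616158-3616407 on the minus strand, and for Acp5 at chr9:22130599-22130848 on the minus strand. Capitals mark every match, on either strand, to GAGGAAG (PU.1), GGAAA (the NFAT core), CATGTG (the E-box of MITF and its relatives), CACGTG (an E-box found in lysosomal genes) or TGANTCA (AP-1).
Ctsk: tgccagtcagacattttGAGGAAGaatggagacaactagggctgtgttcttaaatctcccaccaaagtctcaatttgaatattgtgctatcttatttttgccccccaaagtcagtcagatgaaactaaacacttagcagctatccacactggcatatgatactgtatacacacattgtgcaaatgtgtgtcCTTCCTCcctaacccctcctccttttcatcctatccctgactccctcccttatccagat
Oscar: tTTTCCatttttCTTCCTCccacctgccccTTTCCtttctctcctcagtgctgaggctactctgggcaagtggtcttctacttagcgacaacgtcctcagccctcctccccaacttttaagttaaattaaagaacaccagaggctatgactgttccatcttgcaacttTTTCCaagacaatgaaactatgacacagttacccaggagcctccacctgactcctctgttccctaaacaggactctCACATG
Acp5: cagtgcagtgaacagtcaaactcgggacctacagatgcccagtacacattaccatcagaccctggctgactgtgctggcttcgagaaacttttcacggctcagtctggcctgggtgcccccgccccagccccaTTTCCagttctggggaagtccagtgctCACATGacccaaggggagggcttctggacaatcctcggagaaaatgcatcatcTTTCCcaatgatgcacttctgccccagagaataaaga
Ctsk held GAGGAAG at -233 to -227 and, on the other strand, at -59 to -53, counted from the start site. Oscar, with at most about 1 read in any library, held 1 GAGGAAG, 3 GGAAA and 1 CATGTG, and the Acp5 start site shown held 2 GGAAA and 1 CATGTG. This start site was picked because it holds the most matches of the 3 of Acp5: the others hold 1 GGAAA each and no other match, and the Tnfrsf11a stretch holds no match to any of the motifs. No 2 of these matches share bases. Of 32851 RefSeq promoter windows of this length, 10.6% hold GAGGAAG, 55.6% GGAAA, 12.3% CATGTG, 6.02% CACGTG and 6.75% TGANTCA. The matches describe letters and no binding was measured.

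The steps around the 10 genes were described with lists of known pathway genes. These lists were chosen with earlier results of these data known, so nothing is read from their counts here and below. Beside the counts over both controls stand the shares of all genes tested. With ManGn 1.8% were higher and 1.23% lower, and with fOS 1.9% and 4.37%. All 21 genes of RANK signalling looked for reached an FPKM of 1, with median log2 ratios of 0.15 (ManGn over water) and 0.02 (fOS over the mock extraction), and 0 of them were higher or lower than both controls with either ligand. Traf6, the adaptor that RANK recruits, was at 7.61 to 9.23 FPKM. Sqstm1, the p62 scaffold of this pathway, had the highest single value of the list, under ManGn. It was at 116 FPKM in water, 298 in the mock extraction, 444 under ManGn and 262 under fOS. Mapk3 (ERK1) was at 197, 150.1, 128 and 83.1 FPKM, above Sqstm1 in water and lowest with fOS. Of the ligands of this system, Csf1 and Il34 had at most 0.16 and 0.06 FPKM, and Tnfrsf11b, the decoy receptor osteoprotegerin, was at 0 in all 4 libraries. Tnfsf11, the gene of RANK ligand, was not analysed here.

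Among 13 AP-1 and NFATc1 partner genes tested of 15 looked for, Nfatc1 included, 1 was higher than both controls with ManGn and 2 with fOS, and 0 were lower. Fosl1, a FOS relative of the AP-1 complex, had 1.52 FPKM in water, 1.11 in the mock extraction, 8.39 under ManGn and 9.73 under fOS. Fos itself, which mouse osteoclast precursors require, had 3.68, 13.7, 10.5 and 34.4 FPKM in that order, and passed 2-fold over both controls with fOS only. Junb was at 69.4, 66.8, 136 and 98.5 FPKM. Ppp3r1, a calcineurin subunit, was at 34.2 to 53.0, and Jdp2, another AP-1 partner, was highest with the mock extraction, at 45.8 FPKM against 9.69 with water.

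The ITAM list had 12 of 14 genes tested, and 0 were higher or lower than both controls with either ligand. For the M-CSF axis and lineage factors, 9 of 10 were tested, and Tfec, an MITF relative, was the only 1 called over both controls, with fOS. Tfec had 4.10 FPKM in water, 7.62 in the mock extraction, 6.42 under ManGn and 21.1 under fOS. Csf1r, the M-CSF receptor, was at 256, 526, 281 and 414 FPKM, so its highest value was in a control. Sfpi1, the gene of PU.1, was at 96.7, 207, 177 and 238 FPKM, and Tfe3 at 39.1, 40.5, 32.9 and 36.0.

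Of 9 fusion genes tested of 10 looked for, 2 were higher than both controls with ManGn, Atp6v0d2 and Cd9, and 1 with fOS, Atp6v0d2. Cd9, a tetraspanin of the cell surface, had 191 FPKM in water, 158 in the mock extraction, 455 under ManGn and 166 under fOS, so the ManGn library alone stood apart. Adam8, a surface protease, had 55.7, 119.9, 197 and 238 FPKM. Sirpa, the receptor of CD47, had 135, 315, 196 and 206. The fusion list had a median log2 ratio of 1.25 (ManGn over water), 0.10 (fOS over the mock extraction) and 0.99 (mock extraction over water).

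Of 15 adhesion genes tested of 17 looked for, 1 was higher and 1 lower than both controls with ManGn, and 1 was higher with fOS, the integrin chain Itgav named above. Spp1, osteopontin, a ligand of the αv integrins, had 946 FPKM in water, 1687 in the mock extraction, 6087 under ManGn and 1567 under fOS. Itgb5, the integrin chain that pairs with αv before β3 does, was the lower gene, at 25.2, 20.8, 7.59 and 15.7 FPKM. Cdc42, a GTPase that organises actin, was at 190.0 to 274 FPKM, and Gsn (gelsolin), an actin-severing protein, was highest with water, at 243 FPKM, and lowest with fOS, at 109.6.

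The acid and chloride transport list had 24 of 26 genes tested. Over both controls 3 were higher with ManGn, Atp6v0d2, Car2 and Atp6v1h, and 2 with fOS, Atp6v0d2 and Atp6v1h, and 0 were lower with either. Atp6v1h, a subunit of the cytosolic part of the pump, had 27.9 FPKM in water, 33.6 in the mock extraction, 70.8 under ManGn and 69.9 under fOS. Atp6v1a, the catalytic subunit, had 118, 123, 205 and 169 FPKM, and Atp6v1g1, a stalk subunit, had 144, 133, 199 and 213. The median log2 ratio of the list was 0.66 over water and 0.32 over the mock extraction with ManGn, and 0.53 and 0.21 with fOS, against 4.72, 3.49, 2.50 and 1.26 for Atp6v0d2. Tcirg1, the a3 subunit that osteoclasts use to secrete acid, had 63.7, 73.3, 113 and 98.4 FPKM. Rab7, a GTPase of late endosomes, was the most abundant of the list, at 279 to 442 FPKM.

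**Figure D4:**
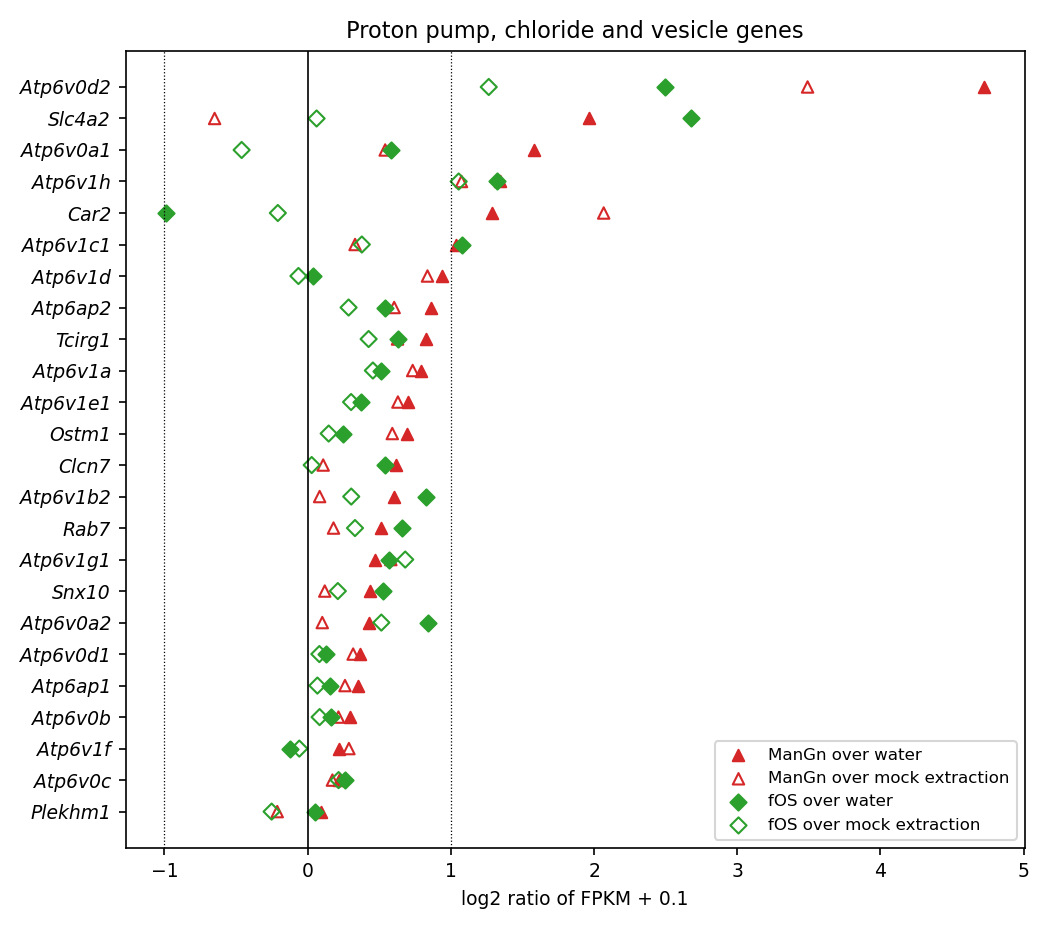
Log2 ratio of FPKM plus 0.1 for the 24 acid and chloride transport genes tested, with ManGn as triangles and fOS as diamonds, filled over water and open over the mock extraction, and dotted lines at 2-fold. Atp6v0d2 lies at the far right with ManGn, at 4.72 and 3.49, while Car2 lies right of 0 with ManGn and left of 0 with fOS.

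Of 8 matrix degradation genes tested, 3 were higher than both controls with ManGn (Mmp12, Ctsd and Acp5), beside 1.8% of all genes tested. With fOS 1 was higher, Mmp12, beside 1.9%, and 0 were lower with either ligand. Mmp12, the macrophage elastase, had 0.33 FPKM in water, 0.60 in the mock extraction, 14.4 under ManGn and 1.75 under fOS. Ctsd, a lysosomal aspartic protease, had 675, 883, 2341 and 1417 FPKM. The other lysosomal cathepsins named by level were Ctsb at 598 to 1326 FPKM and Ctsz at 352 to 628. In each library Ctsk, at 56.5 to 206 FPKM, was below all 3 of these.

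A further list of late markers had 8 genes tested, with the RANK adaptor Traf6 among them. Of these, 2 were higher than both controls with ManGn and 0 with fOS, and 0 were lower with either. Myo1d, an unconventional myosin, had 7.26 FPKM in water, 6.28 in the mock extraction, 23.2 under ManGn and 8.35 under fOS. Tm4sf19, a membrane protein of the tetraspan type, had 1.44, 11.0, 32.3 and 18.3 FPKM, with water low as for Dcstamp. Ckb, the brain-type creatine kinase, had 55.1, 84.3, 139.6 and 100.6 FPKM.

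Of 12 genes tested that hold back osteoclast formation, 2 were higher than both controls with ManGn, Id2 and Id1, and 3 with fOS, Id1, Id2 and Id3. Id2, a helix-loop-helix inhibitor, had 4.60 FPKM in water, 7.09 in the mock extraction, 23.5 under ManGn and 39.2 under fOS. Its relative Id1 had 0.45, 0.33, 1.21 and 6.08. Id3 was 0.11, 4.10, 0 and 21.6, so its high values lay with the mock extraction and fOS. Lilrb4, an inhibitory receptor whose reads may be split with a near-identical copy, had 94.4, 499, 855 and 617 FPKM, Rbpj, a nuclear mediator of Notch, had 189, 155, 192 and 86.4, and Nfkbia, the NF-κB inhibitor, had 38.5, 50.9, 41.6 and 56.0.

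The profile of Atp6v0d2 over the 4 libraries, as centred log2 of FPKM plus 0.1, was closest to that of Akap2 (a distance of 0.57), followed by Mmp12 (0.69), Dio2 (0.71), Gprc5a (0.83) and Mustn1 (0.91). Akap2 had 0.53 FPKM in water, 1.38 in the mock extraction, 12.5 under ManGn and 2.14 under fOS. Mmp12, which is also in the matrix list, had its values above. Of 11182 other genes tested, 6 lay within a distance of 1, and the median distance was 3.51. The likeness rests on 4 points that all genes share, and Dio2, at 0 to 1.75 FPKM, and Gprc5a, at 0.10 to 2.61, rest on few reads. Akap2 in water (0.53 FPKM), and Mmp12 and Mustn1 in both controls (0.33 to 0.60), were also low.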

How the data were processed

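RNA-seq of digitonin-permeabilized RAW264.7 cells was examined in 4 libraries, 1 per condition. The authors computed FPKM per gene with RSEM, per the submitters' processing notes, and deposited them for 17655 genes by Entrez Gene ID. Its version, the aligner, the gene models and the build: not given in the sources used here. The authors' deposited ratio sheets and selected gene sheets, 7 in all, were not used.

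Log2 ratios were computed from FPKM plus 0.1. A gene was tested if any of the 4 libraries reached an FPKM of 1, which left 11183, and called at 2-fold where 1 library of the pair reached that level. Here tested means compared: no statistical test was possible with 1 library per condition. The 10 genes, the 17 gene lists and the alternatives were chosen with earlier results of these data known.

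Of each list, the text names up to 4 genes past 2-fold over both controls in 1 direction with either ligand, and the 3 genes of highest FPKM. Some genes that this rule names are not reported here. Traf6, Itgam, Lyz2, Mertk, Mmp9, Clcn7, Runx2, Slc9b2, Akap6, Siglec15 and Ppargc1b were added after their values were seen. For likeness, the 5 genes with the smallest Euclidean distance from Atp6v0d2, the gene of widest range, are named. Symbols were matched in the table and through RefSeq synonyms.

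Depth was estimated from whole-read steps in FPKM of genes with 1 transcript of 1000 to 2000 bases (GENCODE M21, lengths only). In the 4 libraries 61.6% to 67.8% of 496 to 531 low values lay within 0.1 of a whole read, so the estimates are approximate. Intervals are Clopper-Pearson (95%) and cover counting error only. The scripts were tested on simulated data with Python 3.11.15, numpy 2.4.6, pandas 2.3.3 and scipy 1.17.1. The 8 alternatives were pseudocounts of 0.01 and 1, no filter, FPKM of at least 5, centred ratios, the same upper quartile, and 1.5-fold and 3-fold.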

Additional observations from a re-analysis of the deposited data

How the results depend on the processing

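No paired analysis was possible because each condition has 1 library, and no library could be left out for the same reason. Of the counts of the 10 genes under the 8 alternatives, 96 were within 1.5 times the count as reported and 16 were not. Many of the 96 set 0 against 0, since 0 genes were lower in every comparison as reported. No called ratio changed sign. Most of the 16 came from the fold limit. At 1.5-fold, 4 genes in place of 1 were higher with fOS over the mock extraction and also over both controls, 5 in place of 3 were higher with ManGn over the mock extraction and over both controls, and 1 in place of 0 was lower with fOS over water and with the mock extraction over water. At 3-fold, 0 were higher with fOS over the mock extraction or over both controls, 1 with ManGn over both controls, 3 with fOS over water and 1 with the mock extraction over water. For fOS over water 1 gene was lower with a pseudocount of 0.01, with no filter, with ratios centred on their median and with the same upper quartile. With the mock extraction over water 1 was lower with no filter. The gene was Itgb3 with no filter, which lets in genes under an FPKM of 1, and otherwise Car2, at a quotient of 0.499 for fOS over water and 0.579 for the mock extraction over water. Depth limits Oscar, Itgb3, Ocstamp and Acp5, and scaling to the same upper quartile moved ratios by at most 0.13 (log2), for fOS over water.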
